A study of Rattus norvegicus with 12 samples.

Results

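Islet RNA was compared between rat offspring of dams with diet-induced gestational diabetes and offspring of lean dams, all of which ate a high-fat, high-sucrose diet after weaning. The comparison takes 6 of the 12 libraries of the series: 3 titled GDM with high-fat-sucrose weaning (GDM-HFS) and 3 titled lean with high-fat-sucrose weaning (Lean-HFS). They were chosen by their titles alone, and 12339 of 17407 genes were tested. GDM-HFS offspring came from Sprague-Dawley dams fed an HFS diet (45% fat) from 6 weeks before mating until the end of suckling, and the pups then ate HFS for 12 weeks. Lean-HFS offspring came from dams fed a low-fat (LF) diet (10% fat) over the same period, and their pups were weaned to the same HFS diet for 12 weeks. The other 6 libraries are the LF-weaned offspring of dams on the same diets, 3 titled GDM (GDM-LF) and 3 titled lean (Lean-LF), and are used only to set the GDM difference on HFS beside that on LF. All offspring were 15 weeks old, 6 dams were assigned to each diet, and the sires ate LF. The GDM groups are a diet model, in which the dam's HFS feeding before mating, in pregnancy and during suckling go together. The sources used here do not give the litter or sex of a library, nor whether islets of several animals were pooled, so the p-values measure the spread between these libraries.

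In gestational diabetes a dam's glucose tolerance falls during pregnancy, and the fetal pancreas develops under a raised supply of glucose and lipid. Beta cells, the insulin-producing majority of a rat islet, couple glucose to secretion through mitochondria: respiration raises ATP, ATP-sensitive potassium channels close, calcium enters and insulin granules fuse. A high-fat, high-sucrose diet adds a secretory demand that also loads the endoplasmic reticulum, where proinsulin is folded.

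The GDM-HFS libraries held 24525747, 24110859 and 11469290 gene reads, against 17485547, 17426884 and 13716837 gene reads in the Lean-HFS libraries. The insulin genes Ins1 and Ins2 took 31.9%, 32.1% and 34.4% of the reads outside ribosomal RNA (rRNA) in GDM-HFS libraries and 32.2%, 32.5% and 28.5% in Lean-HFS libraries. Acinar enzymes were also read, with summed scaled values of the 35 acinar markers between 126315 and 259317 in GDM-HFS and between 49856 and 272626 in Lean-HFS libraries. The groups differed in remaining rRNA, which took 4.34%, 1.84% and 2.55% of gene reads in GDM-HFS libraries, against 39.0%, 31.3% and 24.7% in Lean-HFS libraries. They also differed in a length measure, the median log2 deviation of transcripts under 1000 bases minus that of transcripts over 4000 bases: 0.29, 0.40 and 0.74 in GDM-HFS against -0.31, -0.10 and -0.18 in Lean-HFS libraries. Neither measure overlapped between the groups, and an exact permutation test of 3 against 3 cannot give a p under 0.1 (two-sided, adjusted p 0.45 over 18 library measures). Among the HFS-weaned libraries the dam's diet, the rRNA level and the length measure cannot be told apart. Lean-LF 3 came from a lean dam and held little rRNA (1.84%), and its values stand beside some results below. The titles of GDM-HFS 3, GDM-LF 1 and GDM-LF 2 carry the letter K where the others carry G, with no meaning given. The deposited header lists the libraries in another order within each group than the column headings do, so the number of a library within its group is uncertain while its group is not.

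**Figure D1:**
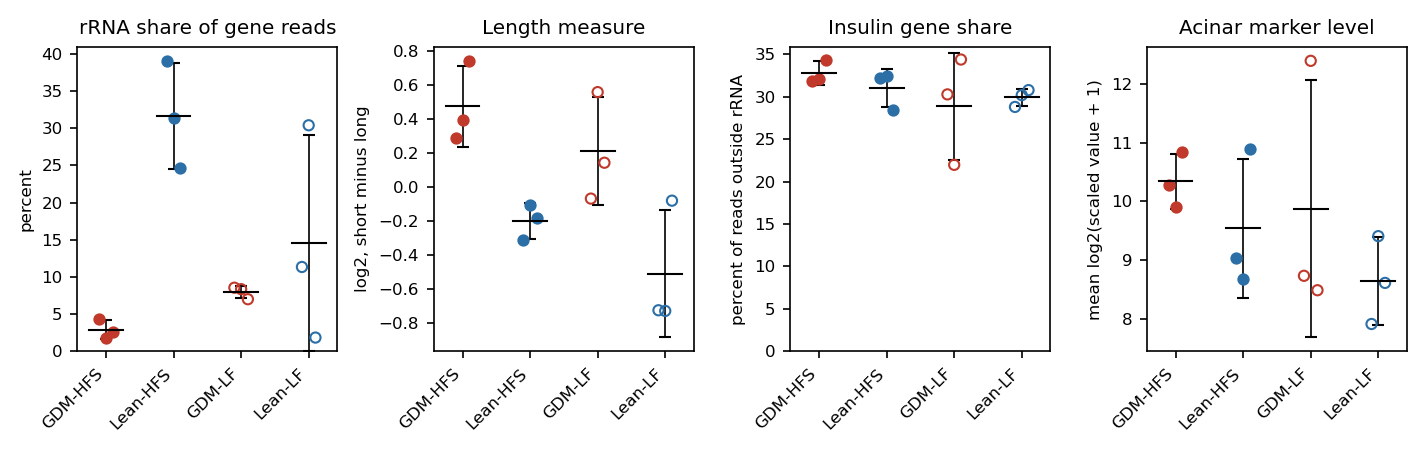
Library measures by group, with 1 point per library, the mean as a bar and the SD as whiskers (n = 3 each). The rRNA share was 2.91% ± 1.29 in GDM-HFS and 31.7% ± 7.14 in Lean-HFS libraries, and the length measure 0.48 ± 0.24 against -0.20 ± 0.10, while the insulin gene share and the acinar marker level overlapped.

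One gene passed the test, and values below are scaled values: depth-normalised signal per gene, not divided by transcript length, rescaled by library median ratios. In bulk tissue, fewer cells of a type and less RNA per cell cannot be told apart. Anks1b, which encodes an ankyrin-repeat scaffold protein of the postsynaptic density, had 128, 164 and 194 in GDM-HFS libraries, against 50.6, 50.2 and 59.2 in Lean-HFS libraries. The lowest GDM-HFS library lay far above the highest Lean-HFS library. Its log2 difference was 1.57 ± 0.20 (SE), a 2.96-fold rise, with a Benjamini-Hochberg adjusted p of 0.0266 from limma over all 12339 genes. That is 0.0081% of the genes tested, and 0 genes (0%) were called lower; 1758 genes had an unadjusted p under 0.05, of which 970 were higher and 788 lower. The next smallest adjusted p over all genes was 0.121. Anks1b lies on chromosome 7, at positions 30603416 to 31774566 of build rn5, plus strand, and its transcript of 5513 bases is long, whereas longer transcripts in general sat lower in GDM-HFS libraries. With the length trend of each library removed, its log2 difference was 1.77, and with the level of the rRNA precursor gene Rn45s as a covariate it was 1.13 (adjusted p 1.00). Its call rested on single libraries: it was lost without GDM-HFS 2 or GDM-HFS 3, without any 1 of the Lean-HFS libraries, without GDM-LF 1 and without Lean-LF 2, where 0 genes were called (942 to 1806 had an unadjusted p under 0.05, and edgeR and DESeq2 on all 12 libraries called 1 and 252). On LF weaning Anks1b had 147, 145 and 132 in GDM-LF and 79.3, 91.8 and 115 in Lean-LF libraries, which also did not overlap, with a log2 difference of 0.58. The difference between the diets was 0.99 ± 0.28 (SE) and did not pass the test over all genes (adjusted p 0.784).

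A fit of the 6 HFS-weaned libraries alone called 84 genes higher (0.681%) and 20 lower (0.162%), and a test of recovered reads with DESeq2 called 252, of which 91 were shared with that fit. Genes are therefore described below by their values and by whether the 3 GDM-HFS libraries overlapped the 3 Lean-HFS libraries. Of all genes tested, 12.7% were higher in every GDM-HFS than in every Lean-HFS library and 12.1% were lower in every one. A group's count is to be read against those shares.

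**Figure D2:**
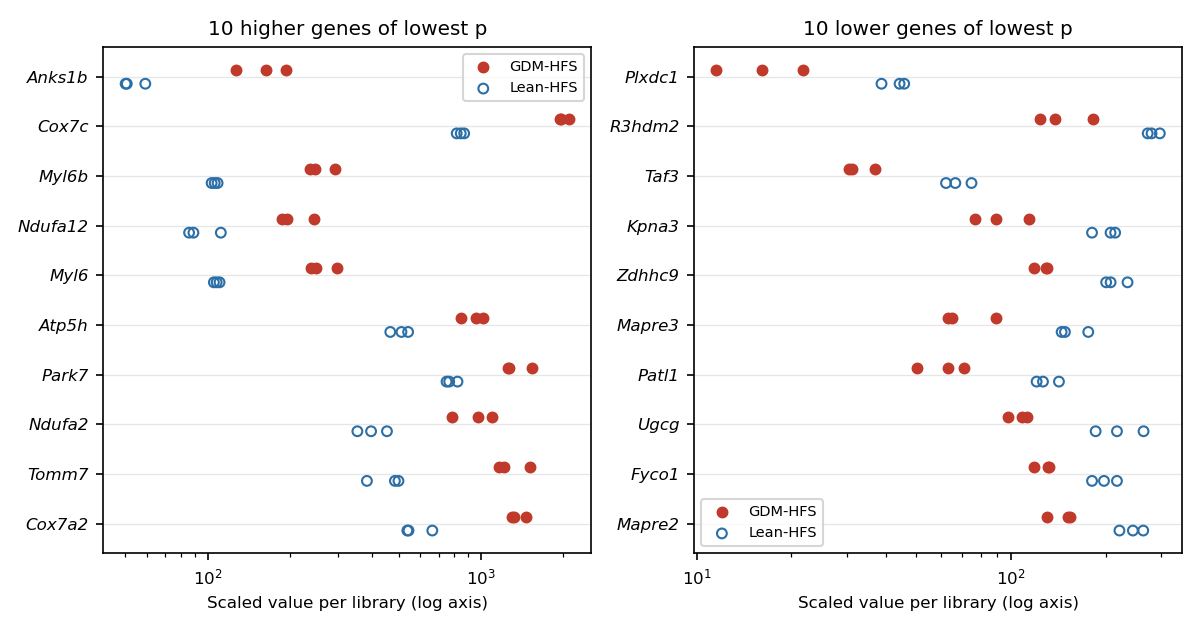
Scaled value in each GDM-HFS library (filled) and each Lean-HFS library (open), on a log axis, for the 10 genes higher and the 10 genes lower in GDM-HFS with the lowest p, provisional symbols and microRNA entries left out. No gene's libraries overlap, and Anks1b alone passed the adjusted threshold.

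Provisional symbols and microRNA entries apart (Mir1843b, with the second-lowest p, is described with the microRNAs below), the 9 genes that followed Anks1b among the higher ones all had an adjusted p of 0.182, so none passed. Cytochrome c oxidase subunit Cox7c had 1939.8, 2103 and 1961 in GDM-HFS libraries, against 869, 844 and 816 in Lean-HFS libraries (log2 1.25 ± 0.23, SE). Cox7a2, another small subunit of that complex, had 1301, 1318 and 1465 in GDM-HFS and 544, 664 and 538 in Lean-HFS libraries (log2 1.23). In both genes the groups stood well apart. Ndufa12, an accessory subunit of NADH dehydrogenase, had 188, 195 and 245 in GDM-HFS and 85.6, 112 and 88.8 in Lean-HFS libraries. Ndufa2, another such subunit, had 976, 784 and 1094 in GDM-HFS and 397, 453 and 353 in Lean-HFS libraries. Each GDM-HFS library lay above each Lean-HFS library in both. Atp5h, a stalk subunit of ATP synthase, had 956, 849 and 1022 in GDM-HFS and 542, 512 and 466 in Lean-HFS libraries (log2 0.89). Tomm7, a small component of the outer-membrane protein import pore, had 1212, 1160.3 and 1508 in GDM-HFS and 485, 499.5 and 383 in Lean-HFS libraries. Park7 (DJ-1), a redox-sensitive protective protein, had 1272, 1259.6 and 1544 in GDM-HFS and 821, 766 and 749 in Lean-HFS libraries. The myosin light chain genes Myl6 and Myl6b complete the list, with log2 differences of 1.26 and 1.27. Both entries span the same positions of chromosome 7 (2880878 to 2882604, rn5), so their reads cannot be told apart. Apart from Park7 these transcripts are 372 (Tomm7) to 673 (Myl6) bases long. In Anks1b and in each of the 9 genes above, the lean, low-rRNA library Lean-LF 3 stood above the other Lean-LF libraries. The 3 Lean-LF values were 562, 591 and 1140.5 for Cox7c and 262, 286 and 719 for Tomm7. Lean-LF 1, with less rRNA than Lean-LF 2, lay below it in Cox7c, Tomm7, Ndufa2, Myl6 and Myl6b. It lay above Lean-LF 2 in Ndufa12, Atp5h, Park7 and Cox7a2. The part of the rRNA level in these genes was not tested. The GDM-LF libraries had 1133, 1378 and 1342 for Cox7c and 861, 978 and 669 for Tomm7.

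Most genes of the respiratory chain lay higher in GDM-HFS libraries without overlap. Of 75 nuclear genes of oxidative phosphorylation tested, 56 were higher in every GDM-HFS library and 3 lower, with a median log2 difference of 0.60, beside -0.01 over all genes tested; 0 passed the test in the fit of 12 libraries and 16, all higher, in that of the 6 HFS-weaned libraries. Complex I, which takes electrons from NADH, had 30 of 34 members higher and a median of 0.60. Complex II, the succinate dehydrogenase, had 2 of 4 higher and a median of 0.27. Complex III had 7 of 9 higher (median 0.67), complex IV 6 of 12 (median 0.56) and ATP synthase 11 of 15 (median 0.67). Every complex had a median above 0, the smallest being that of complex II. Ndufa1, a complex I subunit, had 869.8, 1027 and 1118 in GDM-HFS and 386, 424 and 339 in Lean-HFS libraries. The 3 members lower in every GDM-HFS library, named here after their values were seen, were Ndufa10 (log2 -0.27), Cox8a (-0.69) and Atp5j (-0.27).

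The promoters of the 4 respiratory-chain genes named above with the lowest p and an entry in the promoter table were read for 3 motifs known in mammalian promoters of such genes. They are printed because these genes stood higher together. The motifs were the ETS core CCGGAAG, the NRF1 core and the YY1 core AAGATGGCG, on both strands, within 250 bases before the annotated start (RefSeq, build GRCr8). Motif letters are in capitals, 5′ to 3′ on the gene's strand. Cox7c held none of them.
Ndufa12 promoter, chr7:30658066-30658315, plus strand, NRF1 core in capitals: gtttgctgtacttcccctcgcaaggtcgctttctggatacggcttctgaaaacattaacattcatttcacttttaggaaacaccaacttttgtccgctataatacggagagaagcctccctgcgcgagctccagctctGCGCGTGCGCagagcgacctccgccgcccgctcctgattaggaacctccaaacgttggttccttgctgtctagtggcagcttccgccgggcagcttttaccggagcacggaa
Ndufa2 promoter, chr18:28631885-28632134, minus strand, ETS core in capitals: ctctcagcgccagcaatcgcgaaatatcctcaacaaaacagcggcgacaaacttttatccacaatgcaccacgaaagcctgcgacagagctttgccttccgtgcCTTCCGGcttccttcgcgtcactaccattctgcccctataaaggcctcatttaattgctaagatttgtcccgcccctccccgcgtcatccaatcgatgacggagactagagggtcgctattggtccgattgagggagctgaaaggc
Cox7a2 promoter, chr8:89601150-89601399, minus strand, ETS core in capitals: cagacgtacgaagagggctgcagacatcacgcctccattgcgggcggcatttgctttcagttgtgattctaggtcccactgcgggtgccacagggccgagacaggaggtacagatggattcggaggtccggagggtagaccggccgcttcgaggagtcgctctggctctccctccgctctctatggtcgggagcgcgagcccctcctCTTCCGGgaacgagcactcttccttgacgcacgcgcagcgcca
Of the respiratory-chain genes tested, 65 of 75 had a promoter entry, and 19 of these (29.2%) held the ETS core, 10 (15.4%) the NRF1 core and 1 (1.54%) the YY1 core. Over all 9560 tested genes with an entry the shares were 14.7%, 8.67% and 1.22%, and over all 24206 promoters read they were 8.06%, 4.44% and 0.727%. Among 62 cytosolic ribosomal protein genes with an entry they were 25.8%, 9.68% and 0%. Among 48 mitochondrial ribosomal protein genes they were 18.8%, 12.5% and 2.08%. These are matches of letters and do not show that a factor binds there.

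Cytosolic ribosomal proteins had a larger median than the respiratory chain. All 32 tested proteins of the small cytosolic ribosomal subunit were higher in every GDM-HFS library (median log2 0.98), as were 40 of 47 of the large subunit (median 0.86); 0 of the 79 were lower in every one. In the fit of the 6 HFS-weaned libraries 19 of them passed. Rps14 had 5942, 5801 and 8823 in GDM-HFS, against 1716, 2250.4 and 1909 in Lean-HFS libraries (log2 1.79 ± 0.40, SE). Rpl37 had 2400.5, 2364 and 3458 in GDM-HFS and 1109, 1182 and 1085 in Lean-HFS libraries. Rpl36a had 1506, 1493 and 2259 in GDM-HFS and 760.4, 712 and 862 in Lean-HFS libraries. In all 3 the groups lay apart. The first-listed Rpsa, the laminin-binding ribosomal protein, differed less, with 4628, 3984 and 7197 in GDM-HFS and 3521, 2970.5 and 3252 in Lean-HFS libraries (log2 0.65). Ribosomal protein genes have many near-identical retrocopies, and the treatment of multi-mapped reads is not stated, so single members are uncertain. Of 24 translation factors 7 were higher and 3 lower, with a median of 0.12. The elongation factor subunit Eef1b2 had 1998, 1772 and 2904 in GDM-HFS and 1199, 891 and 1234 in Lean-HFS libraries. The ribosome-assembly factor Eif6 had 692, 862 and 1021 in GDM-HFS and 431, 484 and 513 in Lean-HFS libraries. Pabpc1, which binds the poly(A) tail, ran the other way, with 883, 626 and 675 in GDM-HFS and 1111, 1341 and 2019 in Lean-HFS libraries (adjusted p 0.201).

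Mitochondrial ribosomal proteins, which build the ribosome that translates mitochondrial DNA, had 40 of 61 members higher in every GDM-HFS library, 2 lower and a median of 0.42. Mrpl41 had 319, 336 and 299 in GDM-HFS and 190.0, 208 and 139 in Lean-HFS libraries. Of the 2 lower members, Mrps2 and Mrpl4, Mrps2 had 40.9, 51.4 and 43.3 in GDM-HFS and 79.8, 62.5 and 104 in Lean-HFS libraries. Of 32 proteasome subunits, 20 were higher in every GDM-HFS library and 0 lower (median 0.39). Psmb4, a beta-ring subunit of the 20S core, had 2306, 2757 and 3743 in GDM-HFS and 1288, 1574 and 1454 in Lean-HFS libraries. Psmb1, another, had 1885, 1884 and 2862 in GDM-HFS and 875, 1291 and 1049 in Lean-HFS libraries. Antioxidant genes were less uniform, with 7 of 30 higher and 1 lower. Cytosolic superoxide dismutase Sod1 had 4015, 4086 and 4348 in GDM-HFS and 2838, 2829 and 2117 in Lean-HFS libraries. The 1 lower gene was catalase, Cat, with 185, 123 and 104 in GDM-HFS and 339, 285 and 271 in Lean-HFS libraries (log2 -1.15). With the length trend removed 2 of the 30 antioxidant genes were higher and 3 lower, beside 9.37% and 10.5% of all genes. Of 18 hypoxia-inducible genes 5 were higher and 3 lower. Higd1a, a hypoxia-induced protein of the inner mitochondrial membrane, had 389, 424 and 1092 in GDM-HFS and 161, 156 and 171 in Lean-HFS libraries, the highest value being in GDM-HFS 3 (log2 1.79 ± 0.40, adjusted p 0.182).

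**Figure D3:**
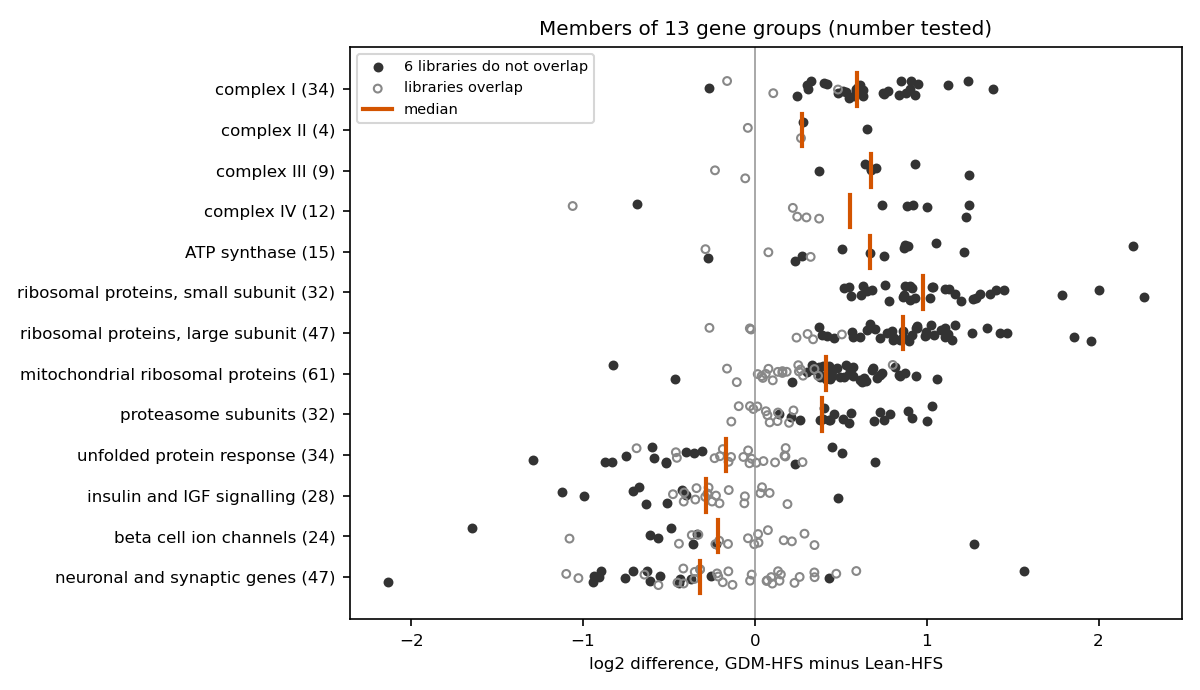
The log2 difference of each tested member in 13 gene groups, one dot per gene, filled where the 3 GDM-HFS and 3 Lean-HFS libraries did not overlap, with the median as a bar. All 32 small-subunit ribosomal proteins lie right of 0, and the medians of the lowest 4 groups lie left of it, between -0.32 and -0.17.

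Transcript length moved with these gene groups, and its part in them was not tested further than here. Among genes of over 300 to 600 bases, 50.7% were higher in every GDM-HFS library and the median log2 difference was 0.62, while among genes over 6000 bases 25.2% were lower in every one and the median was -0.25. The respiratory-chain genes have a median length of 646 bases and the cytosolic ribosomal proteins of 557, beside 2118 bases over all genes tested. With each library's length trend subtracted, 9.37% of all genes were higher and 10.5% lower without overlap. On that scale 32 of 75 respiratory-chain genes (median 0.26), 53 of 79 cytosolic ribosomal proteins (median 0.44), 17 of 61 mitochondrial ribosomal proteins (median 0.13) and 15 of 32 proteasome subunits (median 0.18) were higher in every GDM-HFS library. With Rn45s as a covariate the 4 medians were 0.12, 0.15, 0.01 and 0.10. Rn45s took a mean of 0.71% of gene reads in GDM-HFS and 31.0% in Lean-HFS libraries. Among the HFS-weaned libraries its level cannot be told apart from the dam's diet. That fit left 194 genes with an unadjusted p under 0.05. Medians and signs under this covariate, here and below, therefore do not separate its level from the dam's diet. With the deposited values left unscaled the median of all genes was 0.20, so small group medians below are given relative to a baseline that moves that far. The same gradient held on LF weaning, where the 300 to 600 base class had a median of 0.81.

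**Figure D4:**
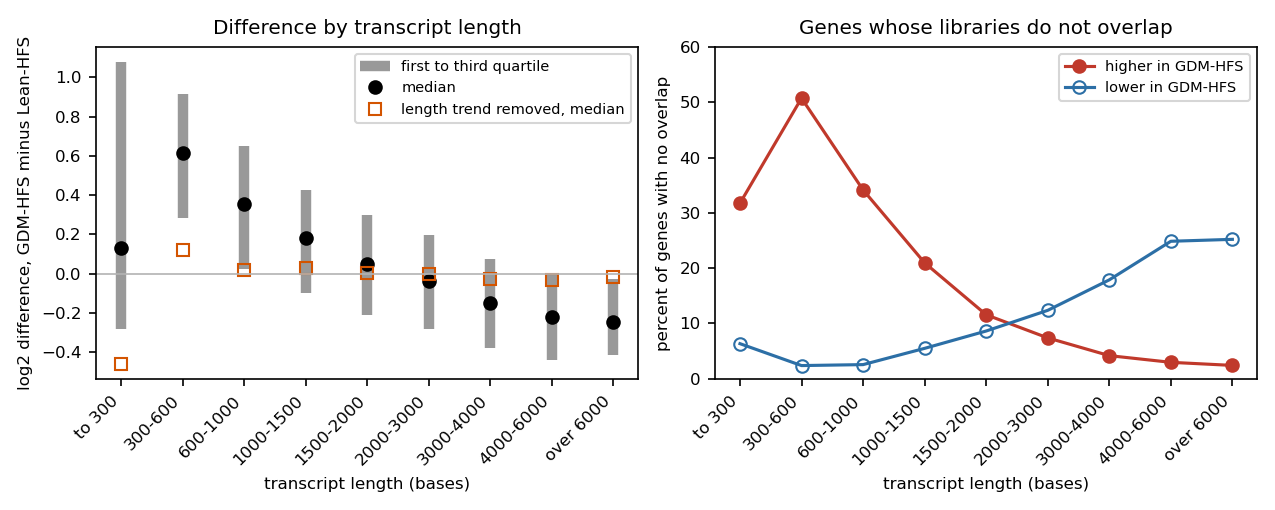
Left, median log2 difference of GDM-HFS minus Lean-HFS by transcript length class, with the quartiles as bars, before and after the length trend was removed. Right, the percent of genes in each class whose GDM-HFS libraries all lay above or all below the Lean-HFS libraries, which for higher genes peaks at 50.7% in the class of over 300 to 600 bases.

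The 10 lower genes of lowest p had adjusted p-values of 0.182 or 0.188, so none passed. Plxdc1, a plexin-domain membrane protein first described on tumour endothelium, had 21.8, 16.1 and 11.5 in GDM-HFS and 45.7, 44.2 and 38.7 in Lean-HFS libraries (log2 -1.37 ± 0.29, SE). Mapre3, like Mapre2 a protein that binds the growing ends of microtubules, had 89.4, 64.7 and 62.9 in GDM-HFS and 176, 145 and 148 in Lean-HFS libraries. Mapre2 had 152, 154 and 130.4 in GDM-HFS and 244, 263 and 221 in Lean-HFS libraries. Kpna3, a nuclear import receptor, had 114, 89.9 and 76.7 in GDM-HFS and 181, 207 and 214 in Lean-HFS libraries (log2 -1.11). In all 4 genes each GDM-HFS library lay below each Lean-HFS library. Ugcg, the enzyme that makes glucosylceramide, had 113, 108 and 98.1 in GDM-HFS and 217, 186 and 264 in Lean-HFS libraries. The palmitoyltransferase gene Zdhhc9 had 129, 130.3 and 118 in GDM-HFS and 207, 235 and 201 in Lean-HFS libraries. Patl1, an mRNA-decapping factor, had 71.0, 63.2 and 50.2 in GDM-HFS and 126, 121 and 142 in Lean-HFS libraries. Taf3, a TFIID subunit that reads histone methylation at promoters, had 36.8, 31.2 and 30.6 in GDM-HFS and 74.8, 62.1 and 66.5 in Lean-HFS libraries. Fyco1, an adaptor for autophagosome transport, and the R3H-domain gene R3hdm2 complete the list with log2 differences of -0.64 and -0.95. Their transcripts run from 1803 to 7722 bases, and with the length trend removed the 10 differences lay between -1.29 (Plxdc1) and -0.40 (Fyco1). In each of the 10 genes the lean, low-rRNA library Lean-LF 3 lay below the other Lean-LF libraries. Lean-LF 1, 2 and 3 had 137, 188 and 96.0 for Mapre3 and 47.1, 44.8 and 37.2 for Plxdc1. The part of the rRNA level in these differences was not tested.

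The endoplasmic reticulum stress genes were split. Of 34 genes of the unfolded protein response tested, 11 were lower in every GDM-HFS library and 4 higher (median -0.17, and 0.05 with unscaled values), and 0 passed. With the length trend removed 8 were lower and 2 higher (median -0.15). Chac1, a glutathione-degrading target of ATF4 and CHOP, had 166, 216 and 175 in GDM-HFS and 339.7, 354 and 322 in Lean-HFS libraries (log2 -0.87 ± 0.23, adjusted p 0.192). Pdia3, a disulfide isomerase of glycoprotein folding, had 1876, 1485 and 783 in GDM-HFS and 3533, 2822 and 3192 in Lean-HFS libraries. Asns, the asparagine synthetase, had 828, 667 and 656 in GDM-HFS and 1099.6, 1093 and 1027 in Lean-HFS libraries. Sdf2l1, a chaperone cofactor of the reticulum, was higher, with 1177, 1034 and 1250.0 in GDM-HFS and 839, 727 and 579 in Lean-HFS libraries. The transcription factor gene Xbp1 (log2 -0.31) and Ern1 (log2 -0.35) were among the genes lower in every GDM-HFS library. The transcription factor genes Atf4 and Ddit3 overlapped between groups. Atf4 had 2769, 3266 and 2822 in GDM-HFS and 2256, 4048 and 2904 in Lean-HFS libraries (log2 -0.02 ± 0.23, SE). Ddit3, which encodes CHOP, had 242, 452 and 319 in GDM-HFS and 178, 374 and 293 in Lean-HFS libraries. The small heat shock protein Hspb6 had 38.6, 22.1 and 16.2 in GDM-HFS and 112, 74.8 and 70.6 in Lean-HFS libraries (log2 -1.76). The mitochondrial chaperonin subunit Hspe1 had 847, 873 and 1114 in GDM-HFS and 357, 543 and 496 in Lean-HFS libraries.

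Genes of excitability and secretion had medians below 0. With Rn45s as a covariate the medians were above 0, under the limit of that fit given above. Of 47 neuronal and synaptic genes, 14 were lower in every GDM-HFS library and 2 higher, Anks1b and the active-zone gene Erc2 (median -0.32, and 0.17 with that covariate). With the length trend removed 9 were lower and 5 higher, and the median was -0.17; the list's median length is 3955 bases. The NMDA receptor subunit Grin1 had 34.6, 77.0 and 44.4 in GDM-HFS and 98.1, 89.2 and 98.8 in Lean-HFS libraries. Among 25 exocytosis genes 3 were lower (Vamp2 and Nsf among them), or 12%, beside 12.1% of all genes, and 1 was higher (Stx1a). The median was -0.20, and 0.25 with the covariate. With the length trend removed 5 were lower and 1 higher. The exocytosis median took the other sign in 2 of 29 alternatives, as did that of the ion channel genes below. The vesicle SNARE Vamp2 had 231, 218 and 197 in GDM-HFS and 557, 361 and 354 in Lean-HFS libraries. The libraries did not overlap in that gene. Of 24 beta cell ion channel and calcium-handling genes 7 were lower and 1 higher (median -0.22, and 0.30 with the covariate). With the length trend removed 3 were lower and 1 higher, beside 10.5% lower and 9.37% higher of all genes, and the median was -0.05. The 1 higher gene was Ryr2, the calcium release channel of the reticulum, with 63.1, 53.1 and 86.5 in GDM-HFS and 32.7, 30.6 and 19.1 in Lean-HFS libraries (log2 1.27 ± 0.32, adjusted p 0.192), although its transcript, of 15946 bases, is among the long ones. Stim1, the calcium sensor of the reticulum, had 158, 150.3 and 151 in GDM-HFS and 295, 218 and 199.9 in Lean-HFS libraries. The subunits of the ATP-sensitive potassium channel overlapped between groups, with log2 differences of 0.08 ± 0.20 for Kcnj11 and -0.23 ± 0.27 for Abcc8.

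Insulin and IGF signalling had 8 of 28 genes lower in every GDM-HFS library and 1 higher (median -0.28, and 0.07 with Rn45s as a covariate), and 0 passed. With the length trend removed 7 were lower and 2 higher (median -0.19). Foxo1, the transcription factor that insulin signalling excludes from the nucleus, had 72.8, 77.2 and 45.6 in GDM-HFS and 156, 131 and 102 in Lean-HFS libraries (log2 -0.99 ± 0.30, adjusted p 0.202). Irs2, the adaptor of the insulin and IGF1 receptors in beta cells, had 889, 720.3 and 785 in GDM-HFS and 1192, 1123 and 1084 in Lean-HFS libraries. The kinase Gsk3b had 82.4, 60.2 and 70.4 in GDM-HFS and 123, 102 and 123 in Lean-HFS libraries. All 3 genes were lower in each GDM-HFS library than in each Lean-HFS library. Imprinted growth genes had 2 of 17 higher in every GDM-HFS library (11.8%) and 3 lower (17.6%), with a median of -0.09. With the length trend removed 2 of them were higher and 1 lower. The imprinted growth factor Igf2 had 235, 215 and 229 in GDM-HFS and 305, 363 and 253 in Lean-HFS libraries. The imprinted transcription factor Plagl1 had 121, 86.2 and 38.1 in GDM-HFS and 217, 276 and 194 in Lean-HFS libraries. Both were lower in each GDM-HFS library. Of 25 cholesterol synthesis genes 2 were lower in every GDM-HFS library, 1 of them Sqle, and 0 were higher. Of 23 fatty acid and triglyceride synthesis genes 1 was higher (Dgat1) and 1 lower (Fads2).

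Beta cell identity genes mostly overlapped between the groups. Of 25 tested, 2 were lower in every GDM-HFS library and 1 higher (median -0.15, 0.07 with unscaled values and 0.37 with Rn45s as a covariate). Neurod1, a transcription factor of mature islet cells, had 762, 571 and 482 in GDM-HFS and 1196, 958 and 900.2 in Lean-HFS libraries (log2 -0.77 ± 0.25, adjusted p 0.211). Vdr, the vitamin D receptor, had 78.2, 106 and 56.5 in GDM-HFS and 207, 116 and 159 in Lean-HFS libraries (adjusted p 0.297). Gipr, the receptor of the gut hormone GIP on beta cells, had 459, 259 and 258 in GDM-HFS and 232, 161 and 119.8 in Lean-HFS libraries (log2 0.92). Pdx1, the master regulator of beta cells, had 697, 763 and 592 in GDM-HFS and 807, 734 and 513 in Lean-HFS libraries (log2 0.02 ± 0.24). Nkx6-1 had 527, 338 and 268 in GDM-HFS and 672, 489.6 and 527 in Lean-HFS libraries. The glucose transporter gene Slc2a2 had 7651, 7963 and 5495 in GDM-HFS and 8468, 8956 and 6063 in Lean-HFS libraries. These 3 genes overlapped between the groups. The maturity marker Ucn3 had a log2 difference of -0.45 ± 0.28 (SE). It overlapped as well.

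Among the hormones, Ins1 and Ins2 had log2 differences of 0.40 ± 2.63 and 0.14 ± 1.69 (SE), and the wide SE come from the spread fitted to the most abundant genes. Each GDM-HFS library lay above each Lean-HFS library in Ins1, while Ins2 overlapped. Of 19 genes of islet hormones and granule peptides, 3 (Ins1, Iapp and Gcg) were higher in every GDM-HFS library and 2 lower (median 0.15). With the length trend removed 0 were higher and 2 lower, beside 9.37% and 10.5% of all genes, and the median was -0.06. Iapp, amylin, had 28003, 27326 and 31295 in GDM-HFS and 26274, 22704 and 16947 in Lean-HFS libraries (log2 0.41 ± 0.35). Gcg, which encodes glucagon, had 89976, 99135 and 202644 in GDM-HFS and 72608, 53854 and 48380.1 in Lean-HFS libraries, so that each GDM-HFS library lay above each Lean-HFS library, with the top value in GDM-HFS 3 (log2 1.09 ± 0.68, adjusted p 0.498). Ppy, pancreatic polypeptide, had 8463, 26407 and 19150.4 in GDM-HFS and 4371, 17528 and 6317 in Lean-HFS libraries. Sst, somatostatin, had 1659.9, 1989.6 and 3069 in GDM-HFS and 1244, 3131 and 1321 in Lean-HFS libraries, and both overlapped. Rbp4, a retinol carrier found in rodent delta cells, had 113, 166 and 277 in GDM-HFS and 69.9, 88.0 and 67.4 in Lean-HFS libraries (log2 1.20). Scg3, a granule-sorting granin, had 6361, 5896 and 3651 in GDM-HFS and 9073, 9743 and 7325 in Lean-HFS libraries. Pyy, peptide YY, had 1414, 2048 and 4133 in GDM-HFS and 1048, 1552 and 1435 in Lean-HFS libraries.

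Inflammatory genes had small differences on HFS and large ones on LF, although 0 genes passed the test between the diets. On HFS, 3 of 40 cytokine, chemokine and NF-kB genes were higher in every GDM-HFS library (Ccl7, Csf3 and Birc3) and 2 lower (Tnfaip2 and Rela), with a median log2 difference of 0.11. On LF, 24 of the 40 were higher in every GDM-LF library, beside 12.9% of all genes, with a median of 1.79, and the test over all genes called 105 genes higher (0.851%) and 90 lower (0.729%) there. Among other cell markers, the acinar and stellate levels overlapped between the LF groups, and each was highest in a single GDM-LF library. The acinar level was 8.73, 12.4 and 8.48 in GDM-LF and 7.91, 9.41 and 8.61 in Lean-LF libraries, and the stellate level 8.17, 6.52 and 6.10 in GDM-LF and 6.21, 6.26 and 6.78 in Lean-LF libraries (mean log2). In GDM-LF 2 the duct and erythrocyte levels were 7.06 and 6.67, the highest of the 12 libraries, and their part in the LF differences was not tested. The LF calls were 0 with edgeR, 0 in a fit of the LF-weaned libraries alone and 1684 with DESeq2. Ccl2, the chemokine that draws monocytes, had 150.3, 344 and 888 in GDM-HFS and 77.1, 258 and 224 in Lean-HFS libraries. On LF it had 1099.7, 6321 and 404 in GDM-LF and 53.8, 99.6 and 157 in Lean-LF libraries. Cxcl1, a neutrophil chemokine, had 26.5, 92.9 and 150.0 in GDM-HFS and 13.4, 74.0 and 52.4 in Lean-HFS libraries. On LF it had 181, 1823 and 176 in GDM-LF and 10.4, 61.8 and 29.1 in Lean-LF libraries. The HFS groups overlapped in both genes and the LF groups did not. The test of the difference between the diets gave -2.77 for Ccl2 and -2.89 for Cxcl1 on the log2 scale, and 0 of 12339 genes (0%) passed it after adjustment (smallest adjusted p 0.784; 730 genes had an unadjusted p under 0.05, and edgeR and DESeq2 also called 0). Of the 40 genes, 38 had a smaller difference on HFS than on LF, 20 of them with an unadjusted p under 0.05, and the median difference was -1.70. Rela, the NF-kB subunit p65, had 168, 129 and 147 in GDM-HFS and 253, 206 and 246 in Lean-HFS libraries (log2 -0.67).

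Across all genes, 486 were higher without overlap on both diets, of 1564 such genes on HFS and 1592 on LF, 414 were lower on both and 48 ran opposite ways. Glycolysis had 4 of 22 higher (18.2%, beside 12.7% of all genes) and 0 lower. The entry of the glycolytic enzyme Tpi1 was at 23.6, 31.2 and 22.5 in GDM-HFS and 1.34, 9.95 and 18.7 in Lean-HFS libraries. These values are low, and reads of near-identical copies are uncertain. The apoptosis list had 6 of 28 genes higher and 2 lower. The thioredoxin gene Txn1 was at 1157, 1044 and 1433 in GDM-HFS and 623, 628 and 741 in Lean-HFS libraries. Chromatin enzymes had 3 of 26 higher and 5 lower, and circadian clock genes 0 of 17 higher and 1 lower.

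Interferon response genes had 6 of 36 members higher in every GDM-HFS library and 1 lower, with a median of 0.17 on HFS and 1.27 on LF. Isg15, a ubiquitin-like interferon target, had 23.6, 30.1 and 42.1 in GDM-HFS and 5.38, 19.5 and 20.0 in Lean-HFS libraries. On LF it had 38.0, 564 and 48.9 in GDM-LF and 10.4, 10.0 and 10.3 in Lean-LF libraries. GDM-LF 2 alone carried the value above 100 in that gene. Ifi27, an interferon-inducible membrane protein, had 753, 1126 and 1196 in GDM-HFS and 449, 609.8 and 377 in Lean-HFS libraries, and log2 differences of 1.10 on HFS and 1.32 on LF. Psmb10, a subunit of the immunoproteasome, had 224, 329 and 569 in GDM-HFS and 148, 199 and 173 in Lean-HFS libraries. Immediate early genes had a median of 0.00 on HFS, beside 1.07 on LF, and cell cycle genes -0.11 beside 0.79. Ldha, lactate dehydrogenase, which mature beta cells hold low, had 1064, 1201 and 2539 in GDM-HFS and 679.8, 580.3 and 1141 in Lean-HFS libraries (log2 0.95, adjusted p 0.227). On LF it had 2475, 1913 and 1592 in GDM-LF and 565, 584 and 819.7 in Lean-LF libraries. Protocadherin Pcdhb6, named after its values were seen, had the smallest p of the test between diets: 4.27, 3.66 and 5.19 in GDM-HFS against 0.896, 0 and 0 in Lean-HFS libraries. On LF it had 2.63, 0.843 and 0.874 in GDM-LF and 7.72, 6.09 and 4.32 in Lean-LF libraries.

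**Figure D5:**
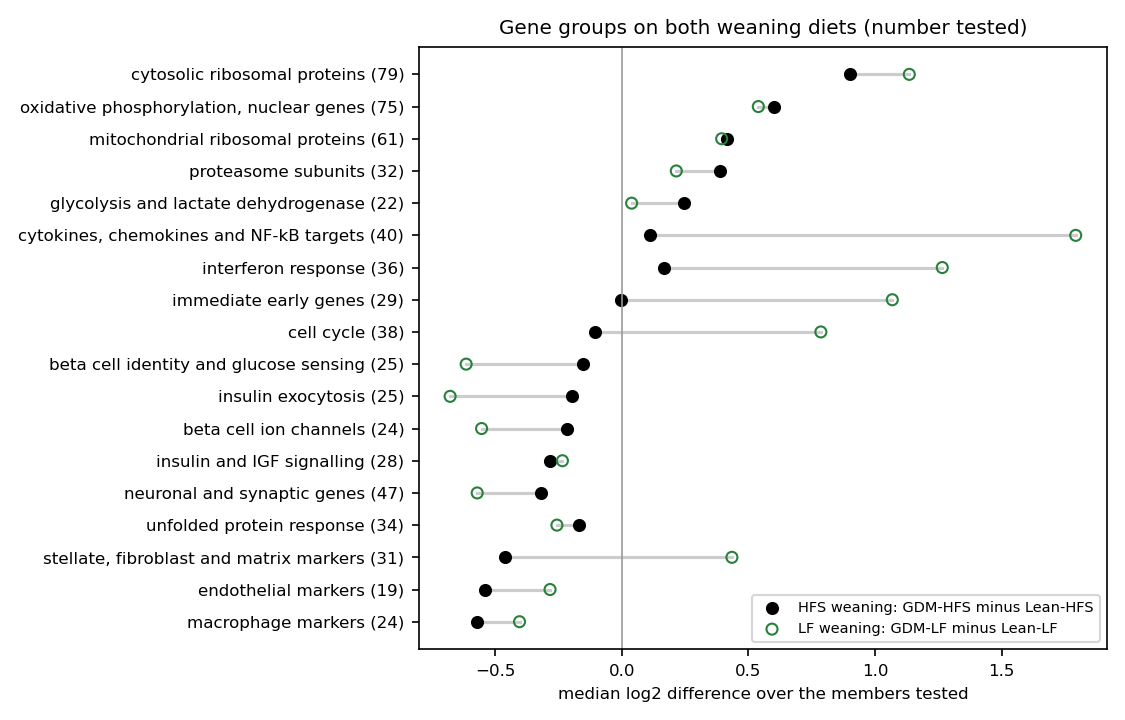
Median log2 difference of 18 gene groups for GDM-HFS minus Lean-HFS (filled) and GDM-LF minus Lean-LF (open), over the members tested. The medians for cytosolic ribosomal proteins were 0.90 and 1.14, and those for cytokines, chemokines and NF-kB targets 0.11 and 1.79.

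The mean level of every marker list measured overlapped between the groups. None of the markers of acinar, endothelial, stellate and macrophage cells was at 0 in a whole group. Summed scaled values of the 24 macrophage markers ran from 122 to 923 in GDM-HFS and from 355 to 952 in Lean-HFS libraries, and those of the 31 stellate markers from 4669 to 5089 and from 4343 to 8327. Sums of the alpha cell markers, Gcg among them, did not overlap, with 94148 to 207516 in GDM-HFS and 51680 to 76711 in Lean-HFS libraries. Nor did those of the Schwann and glial markers, with 154 to 187 in GDM-HFS and 192 to 224 in Lean-HFS libraries. The acinar marker level was 10.3 ± 0.471 in GDM-HFS and 9.54 ± 1.19 in Lean-HFS libraries (mean log2, SD, n = 3 each; exact permutation p 0.4), with trypsinogen Prss1 at 24216, 17839.6 and 46147 in GDM-HFS and 9609, 6165 and 44271 in Lean-HFS libraries. Lean-HFS 3 lay above the highest of the GDM-HFS libraries in the mean level. Of 31 stellate, fibroblast and matrix genes 7 were lower in every GDM-HFS library and 0 higher (median -0.46), among them the metalloproteinase inhibitor Timp3, with 35.7, 50.1 and 18.5 in GDM-HFS and 55.6, 83.2 and 74.7 in Lean-HFS libraries. The proteoglycan Bgn had 41.6, 33.1 and 24.8 in GDM-HFS and 123, 47.4 and 74.2 in Lean-HFS libraries. Collagen gene Col1a1 had 86.5, 75.7 and 79.6 in GDM-HFS and 294, 12.3 and 240.0 in Lean-HFS libraries and overlapped, the low value being in Lean-HFS 2. Endothelial genes had a median of -0.54 with 0 of 19 free of overlap, and the VEGF receptor Kdr had 59.3, 124 and 39.2 in GDM-HFS and 98.6, 152 and 214 in Lean-HFS libraries. Macrophage markers were low in GDM-HFS 3, where Csf1r was at 3.46 against 31.0 and 27.3 in the other two GDM-HFS libraries and 38.5, 12.3 and 36.4 in Lean-HFS libraries. Erythrocyte globin Hbb had 461, 775 and 782 in GDM-HFS and 57.4, 168 and 589 in Lean-HFS libraries, overlapping in Lean-HFS 3. The part of these cells in the results above was not tested.

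Entries of small noncoding RNAs held some of the widest gaps. The libraries were not made for small RNAs, so reads at these entries may come from precursors or host transcripts. Of 42 microRNA entries tested, 8 were higher in every GDM-HFS library and 3 lower (median log2 difference -0.11). Their median length is 91.5 bases, and of all tested genes up to 300 bases 31.7% were higher and 6.35% lower. With the length trend removed 4 of the 42 were higher and 15 lower, beside 9.37% and 10.5% of all genes. Their median on that scale was -0.75. The 3 shown, named after their values were seen, are the 3 with the lowest p, with the mature sequences of RefSeq (GRCr8), 5′ to 3′, and the seed (bases 2 to 8) in capitals.
rno-miR-1843b-5p: aUGGAGGUcucugucugacuuag
rno-miR-1843b-3p: uCUGAUCGuuccccuccauac
rno-miR-1949: uAUACCAGgaugucagcauaguu
rno-miR-375-3p: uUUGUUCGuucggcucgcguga
rno-miR-375-5p: gCGACGAGccccucgcacaaacc
No seed is shared among the 5. Mir1843b had 129, 121 and 161 in GDM-HFS, against 5.38, 5.17 and 17.8 in Lean-HFS libraries (log2 3.92 ± 0.61, adjusted p 0.121), the second-lowest p of all genes. In Lean-LF 3, the lean library with little rRNA, it stood at 131. Mir1949 had 102, 104 and 191 in GDM-HFS and 2.24, 15.9 and 28.7 in Lean-HFS libraries (log2 3.44). Mir375, the gene of the best known islet microRNA, which restrains insulin secretion in mouse beta cells, had 6.29, 6.45 and 14.4 in GDM-HFS and 1.34, 1.19 and 0.455 in Lean-HFS libraries (log2 2.27, adjusted p 0.192). The signal recognition particle RNA Rn7sl1 had 42659, 35373 and 98930.3 in GDM-HFS and 5162, 8759 and 15159 in Lean-HFS libraries, and 4134, 4462 and 38247 in the Lean-LF libraries, the last of these being the one with little rRNA.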

How the data were processed

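Strand-specific, rRNA-depleted RNA libraries of hand-picked rat islets were analysed from 1 deposited table of 17407 genes. Per the submitters' processing notes the tools were STAR 2.5.1b, HOMER 4.9 and DESeq2. Per the file headers, HOMER counted exon reads of rn5 genes on both strands and normalised them, so overlapping and antisense genes and near-identical copies are uncertain. The header calls the deposited values FPKM, but they are depth-scaled signal not divided by length: whole reads were recovered from 100% of values up to 1000 reads (tolerance 0.1).

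Libraries were rescaled by median ratios over 11337 genes. Genes averaging a scaled value of 1 or more entered limma 3.58.1 (R 4.3.3) on log2(scaled value + 1), with 1 mean for each of 4 groups in 12 libraries, trended variance and Benjamini-Hochberg adjustment at 0.05. A log2 difference on this scale understates changes of low genes. Recovered reads were tested with edgeR 4.0.16 and DESeq2 1.42.0 as alternatives. The length trend was the library's fitted deviation by transcript length, and rRNA entries were 3. Alternatives changed scaling, pseudocount, filter, variance model, covariates and libraries. Library measures had exact two-sided permutation tests. The steps were tested on simulated data. Intervals and p-values cover 3 libraries a group.

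Genes named are the 10 of lowest p in each direction, leaving out provisional symbols and microRNA entries, and, in each gene list, up to 4 of lowest p and the first 2 listed; others, and those named without values, were named after their values were seen. Some genes that this rule names are not reported here. The members and lists were chosen with earlier results of these data known. Of 1223 list entries, 1141 matched the table. Sequences come from RefSeq (GRCr8), matched by symbol: 9560 tested genes had a promoter, and 39 of 42 microRNA entries a mature sequence. No genome was used here.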

Additional observations from a re-analysis of the deposited data

Results flagged for a closer look

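In 3 of the named genes the GDM libraries lay on opposite sides of the lean libraries on the weaning diets, for Tnfaip2 by a narrow gap on HFS (18.28 in GDM-HFS 2 and 18.31 in Lean-HFS 2). The test of the difference between the diets did not pass over all genes for any of them (adjusted p 0.784). Tnfaip2, a TNF-induced gene, had 6.07, 18.3 and 10.4 in GDM-HFS and 23.7, 18.3 and 26.4 in Lean-HFS libraries, and 54.6, 101 and 33.2 in GDM-LF and 5.33, 26.1 and 17.8 in Lean-LF libraries, a difference between the diets of -3.00 (log2). Pcdhb6, a clustered protocadherin, had 4.27, 3.66 and 5.19 in GDM-HFS and 0.896, 0 and 0 in Lean-HFS libraries, and 2.63, 0.843 and 0.874 in GDM-LF and 7.72, 6.09 and 4.32 in Lean-LF libraries, a difference of 3.68. Its neighbour in the cluster Pcdhb2 had 4.27, 2.36 and 8.08 in GDM-HFS and 0, 0.796 and 0.911 in Lean-HFS libraries, and 1.51, 0.561 and 3.50 in GDM-LF and 3.73, 6.96 and 4.82 in Lean-LF libraries, a difference of 3.06. Both protocadherin genes rest on few reads, 45 and 44 over the 3 GDM-HFS libraries.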

How the results depend on the processing

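The comparison on HFS weaning called 1 gene, and also 1 with TMM scaling, other pseudocounts, other filters, an acinar covariate and edgeR. It called 2 with unscaled values, with the length trend removed and with a replicate block, 57 with library weights (44 higher, 13 lower), 252 with DESeq2 (196 higher, 56 lower) and 104 in the 6 HFS-weaned libraries alone (84 higher, 20 lower). It called 0 without the mean-variance trend, with Rn45s as a covariate and without the K libraries. Leaving out 1 library of the 12 gave 0 to 152 calls, the latter without Lean-LF 3. Anks1b was called in 19 of 29 alternatives, with log2 differences of 1.13 to 1.78 and adjusted p-values of 1.12e-08 to 1.00. The 195 calls on LF weaning were 484 with unscaled values, 362 with a filter at 10, 1768 with library weights, 1684 with DESeq2 and 0 to 1726 without 1 library. They were 0 with either other pseudocount, no filter, no trend, the replicate block, the length trend removed, either covariate, edgeR, no K libraries or the LF-weaned libraries alone. The test between the diets called 0 genes in every alternative. The cause of these changes was not tested.

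Deviations of same-numbered GDM-HFS and Lean-HFS libraries had correlations of 0.11, 0.15 and -0.11, and those of differently numbered libraries ran from -0.22 to 0.11. The number of a library within its group is uncertain, so these values cannot show whether libraries were paired. The replicate block called 20 genes in the 6 HFS-weaned libraries (17 higher, 3 lower) and 2 in all 12.

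With Rn45s as a covariate the log2 difference took the other sign in 8 named genes: Eif2s1 -0.10, Vamp2 0.19, Stim1 0.22, Neurod1 0.024, Vdr 0.29, Scg3 0.088, Rela 0.16 and Rn7sl1 -0.32. The level of Rn45s cannot be told apart from the dam's diet among the HFS-weaned libraries. Leaving out 1 library moved the group difference of the rRNA share between -32.2 and -25.1 percentage points, of the length measure between 0.54 and 0.77, of the insulin share between 0.457 and 2.46 points and of the acinar level between 0.37 and 1.48 (log2). Precision is limited by 3 libraries a group; GDM-HFS 3, with 11469290 gene reads, was the shallowest of the HFS-weaned libraries.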
